A study of Mus musculus and Homo sapiens with 34 samples.

Results

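The transcription factors GRHL1, GRHL2, GRHL3, HNF4A, CDX1, CDX2, EHF, ELF3, OVOL1 and KLF5 were followed in spheroids of 3 colorectal carcinoma lines. They are 10 of 58870 genes in the human table and, as their mouse counterparts, 10 of 55450 genes in the mouse table, matched by symbol. The groups were HT29 (human) with SIS ECM and HT29 cells alone, with 6 libraries each, CT26 (mouse) with SIS ECM and CT26 cells alone, with 6 each, and MC38 (mouse) with SIS ECM and MC38 cells alone, with 5 each. SIS ECM is decellularised extracellular matrix of small intestinal submucosa, and spheroids that form with it are called MatriSpheres. All groups were cultured for 7 days in low-attachment plates, and each library came from polyA RNA of a tube of 10 pooled spheroids. The labels do not say that tubes came from separate cultures, so the spread between libraries may be technical.

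Grainyhead-like factors (GRHL1, GRHL2 and GRHL3) bind genes of epithelial junctions and barriers, and OVOL1 and the ETS-family factors EHF and ELF3 are restricted largely to epithelia. HNF4A and the caudal-type factors CDX1 and CDX2 drive the gene programme of the intestinal epithelium, and KLF5 is a zinc-finger factor of its proliferating crypt cells. In the gut these factors bind many of the same genes, among them brush-border enzymes and intestinal cadherins. The members were chosen from earlier results on these same libraries, including their levels and their SIS ECM differences. Their values for SIS ECM against cells alone are therefore given as a description, with no p-value.

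Library totals were 25.5 to 37.0 (in 1e6 counts) in the 12 HT29 libraries and 15.8 to 24.2 (in 1e6 counts) in the 22 mouse libraries. Levels below are CPM, counts per 1e6 counts of a library after TMM scaling within each line, so levels of one gene can be compared between cultures of one line, and levels of different genes cannot be compared without their lengths. A gene was called where edgeR's quasi-likelihood test gave an adjusted p below 0.05 over all genes tested in that line. In HT29 the 10 colorectal epithelium markers summed to 8871 to 10770 CPM with SIS ECM and 9771 to 11157 CPM in cells alone, and none was under 10 counts in total. In CT26 that sum was 71.3 to 88.2 CPM with SIS ECM and 47.1 to 61.5 CPM in cells alone, and Epcam and Cdh1, the defining adhesion proteins of epithelia, were at 0 in all 12 libraries. In MC38 it was 0.896 to 1.97 CPM with SIS ECM and 0.881 to 1.74 CPM in cells alone, with Epcam, Krt19 and Krt20 at 0 in all 10 libraries. The ZEB, SNAI and TWIST list, which includes repressors of epithelial genes, summed to 702 to 870 CPM in CT26 with SIS ECM and 680 to 793 CPM in CT26 cells alone, to 884 to 963 CPM in MC38 with SIS ECM and 845 to 913 CPM in MC38 cells alone, and to 17.1 to 19.7 CPM in HT29 with SIS ECM and 13.4 to 15.3 CPM in HT29 cells alone. The list also holds PRRX1, FOXC1, FOXC2 and TCF4, so its sum is not a level of ZEB, SNAI and TWIST genes alone. FOXC1 averaged 14.7 CPM in HT29 with SIS ECM and 11.2 CPM in HT29 cells alone. In CT26, Prrx1 averaged 255 CPM with SIS ECM and 279 CPM in cells alone, and Tcf4 142 and 102 CPM. In MC38, Tcf4 averaged 226 CPM with SIS ECM and 208 CPM in cells alone. Of the 10 colorectal epithelium markers, 4 in CT26 and 8 in MC38 had under 10 counts over all libraries of the line.

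Promoters of 5 of the mouse members were matched by symbol in the RefSeq table of build GRCm38.p6. Shown are the 200 bases from 250 to 51 bases before the start for Hnf4a, which had no count in any mouse library, Cdx2, which was counted in CT26 and not in MC38, and Grhl1, which was counted in every library of both lines. Capitals mark CG dinucleotides. The windows are chr2:163506607-163506806 on the plus strand for the first of 2 Hnf4a starts, chr5:147307300-147307499 on the minus strand for Cdx2 and chr12:24572037-24572236 on the plus strand for the first of 2 Grhl1 starts.
Hnf4a: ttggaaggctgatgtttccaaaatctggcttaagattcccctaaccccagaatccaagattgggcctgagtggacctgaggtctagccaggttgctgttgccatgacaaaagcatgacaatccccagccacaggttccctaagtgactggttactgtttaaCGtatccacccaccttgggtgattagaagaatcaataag
Cdx2: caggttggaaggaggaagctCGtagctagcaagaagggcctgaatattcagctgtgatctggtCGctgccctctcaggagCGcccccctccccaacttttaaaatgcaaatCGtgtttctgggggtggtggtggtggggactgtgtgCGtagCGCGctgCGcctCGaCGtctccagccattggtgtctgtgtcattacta
Grhl1: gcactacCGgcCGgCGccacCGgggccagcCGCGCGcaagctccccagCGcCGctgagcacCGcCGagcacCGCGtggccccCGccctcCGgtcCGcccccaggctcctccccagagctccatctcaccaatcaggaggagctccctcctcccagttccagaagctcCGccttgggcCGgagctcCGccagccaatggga
The Hnf4a window held 1 CG dinucleotide, the Cdx2 window 10 and the Grhl1 window 19, against a median of 4 (quartiles 2 and 11) over 32851 windows of the same length. The windows not shown held 3 (second Hnf4a start), 0 (second Grhl1 start), 8 (Grhl3) and 7 (Elf3). Read 5′ to 3′ and on both strands, with overlapping matches counted, no window of the 3 held the HNF4 motif CAAAGNNCA, the CDX motif TTTATNG, the GRHL motif AACNNGTT or the ETS motif CCGGAA. These motifs were present in 4.4%, 7.65%, 3.03% and 8.03% of all windows, in that order. The KLF motif GGGNGGGG, present in 22.4% of windows, occurred 1 time in the Cdx2 window and 1 time in the Grhl1 window. Of the windows not shown, that of the second Hnf4a start held it 5 times and the others 0 times. The matches describe these letters only, since RNA was measured and not binding.

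In HT29, GRHL3 and HNF4A were lower in spheroids with SIS ECM, and the other 8 members were not called. GRHL3, the grainyhead factor best known for epidermal barrier formation and wound repair in mouse, had a lowest, median and highest level of 5.22, 5.64 and 6.61 CPM with SIS ECM, against 9.38, 12.3 and 13.7 CPM in cells alone. All 6 SIS ECM libraries lay below all 6 libraries of cells alone. The means were 5.82 ± 0.56 CPM with SIS ECM and 11.8 ± 1.57 CPM in cells alone (SD, n = 6 each), a log2 fold change of -1.02 ± 0.09 (SE), so the level in cells alone was 2.03 times that with SIS ECM. Its relatives GRHL1 and GRHL2 had log2 fold changes near 0. GRHL1 averaged 26.1 ± 2.07 CPM with SIS ECM and 27.0 ± 1.06 CPM in cells alone (SD, n = 6 each; log2 fold change -0.05 ± 0.05), and the groups overlapped. GRHL2, the family member most tied to E-cadherin expression, averaged 68.9 ± 2.34 CPM with SIS ECM and 63.8 ± 3.87 CPM in cells alone (SD, n = 6 each; 0.11 ± 0.04), with 5 of 6 SIS ECM libraries above all libraries of cells alone. Of the counts assigned to the 3 grainyhead genes, GRHL3 held 5.77 ± 0.38% with SIS ECM and 11.5 ± 1.13% in cells alone (SD, n = 6 each), so its share of the family total also lay lower in every SIS ECM library.

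HNF4A, a nuclear receptor that maintains enterocyte gene expression, had a lowest, median and highest level of 53.8, 56.9 and 61.4 CPM with SIS ECM, against 63.4, 76.8 and 87.9 CPM in cells alone. Again no SIS ECM library reached the lowest library of cells alone. The means were 57.4 ± 3.43 CPM with SIS ECM and 76.8 ± 8.57 CPM in cells alone (SD, n = 6 each), a log2 fold change of -0.42 ± 0.07 (SE). CDX2, the main caudal-type factor of adult intestine, did not differ beyond its spread, at 1.84 ± 0.27 CPM with SIS ECM and 1.86 ± 0.37 CPM in cells alone (SD, n = 6 each; log2 fold change -0.03 ± 0.15). CDX1, a caudal-type factor and Wnt target, was counted at 12 to 36 reads per library with SIS ECM and 27 to 39 in cells alone. It averaged 0.716 ± 0.22 CPM with SIS ECM and 1.05 ± 0.089 CPM in cells alone (SD, n = 6 each; log2 fold change -0.53 ± 0.19), and 5 of 6 SIS ECM libraries lay below all of cells alone. CDX1 was not called. It was called in 1 of the 9 other settings that tested it, limma-voom (-0.57), and in 1 of 12 single-library omissions. That omission was of HT29 SIS ECM library 3 (-0.69), the library at 1.10 CPM that lay among those of cells alone.

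**Figure D1:**
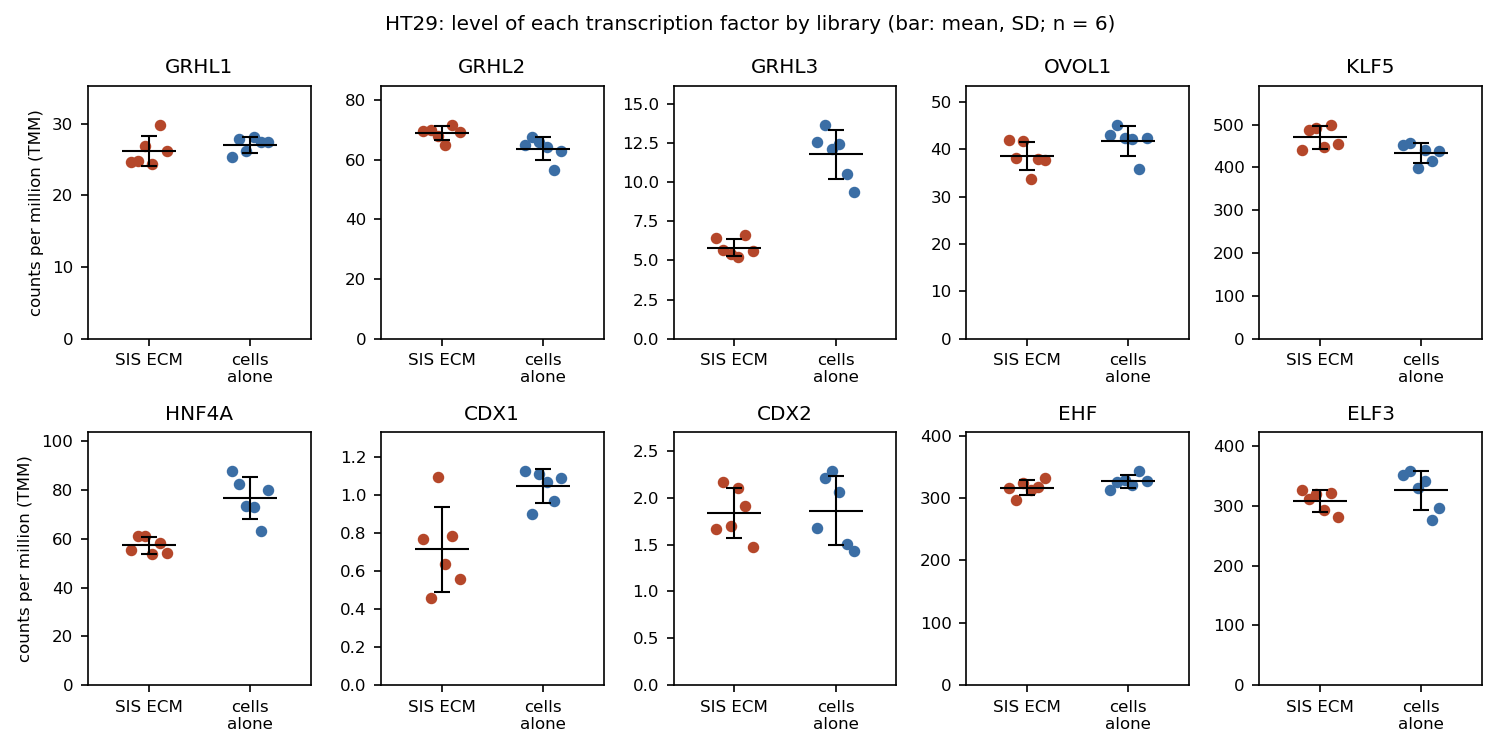
Level of each factor in HT29 in CPM (vertical axis, linear, from 0) with SIS ECM (left in each panel) and in cells alone (right). Each point is a library, and bars give the mean and SD of 6 libraries. GRHL3 (5.82 and 11.8 CPM) and HNF4A (57.4 and 76.8 CPM) are the 2 factors whose groups do not overlap. The share of all genes whose groups do not overlap was not counted, so nothing is read from this number.

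KLF5 averaged 470 ± 26 CPM with SIS ECM and 434 ± 22.4 CPM in cells alone (SD, n = 6 each; log2 fold change 0.12 ± 0.05). OVOL1, a repressor of mesenchymal genes in mouse epithelia, averaged 38.6 ± 3.01 CPM with SIS ECM and 41.8 ± 3.16 CPM in cells alone (SD, n = 6 each; -0.12 ± 0.06). EHF averaged 317 ± 11.8 CPM with SIS ECM and 327 ± 10.1 CPM in cells alone (SD, n = 6 each; -0.05 ± 0.04). The groups of these 3 factors overlapped, and none was called. ELF3 averaged 309 ± 18.2 CPM with SIS ECM and 326 ± 32.5 CPM in cells alone (SD, n = 6 each; -0.08 ± 0.06), and all 6 SIS ECM libraries lay within the range of cells alone. ELF3 was the one member with fractional counts, in all 12 libraries; the antisense gene ELF3-AS1, at 8.24 ± 0.50 CPM with SIS ECM and 8.25 ± 0.68 CPM in cells alone (SD, n = 6 each), may share reads with it, and whether counting used the strand is not stated by the labels. Between libraries of a group the members' coefficient of variation ran between 3.39% (GRHL2) and 31.3% (CDX1) with SIS ECM and between 3.09% (EHF) and 19.9% (CDX2) in cells alone.

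Of the 10 members, all of them tested in HT29, 2 were called and both were lower. Over all 15207 genes tested, 13.5% were called and 5.79% were called lower; since the members were chosen from this contrast, nothing is read from the comparison. Their median log2 fold change was -0.06, against -0.0046 over all genes tested, with 8 negative and 2 positive. In the authors' deposited table all 10 are listed for HT29 and 4 have an adjusted p below 0.05, namely GRHL3 (log2 fold change -1.02), HNF4A (-0.42), CDX1 (-0.75) and KLF5 (0.15). In bulk RNA, fewer cells that express a gene and less RNA per cell cannot be told apart. Mitochondrial transcripts made up 5.33 to 6.89% of counts with SIS ECM and 6.15 to 6.80% in HT29 cells alone, and their part in these differences was not tested.

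**Figure D2:**
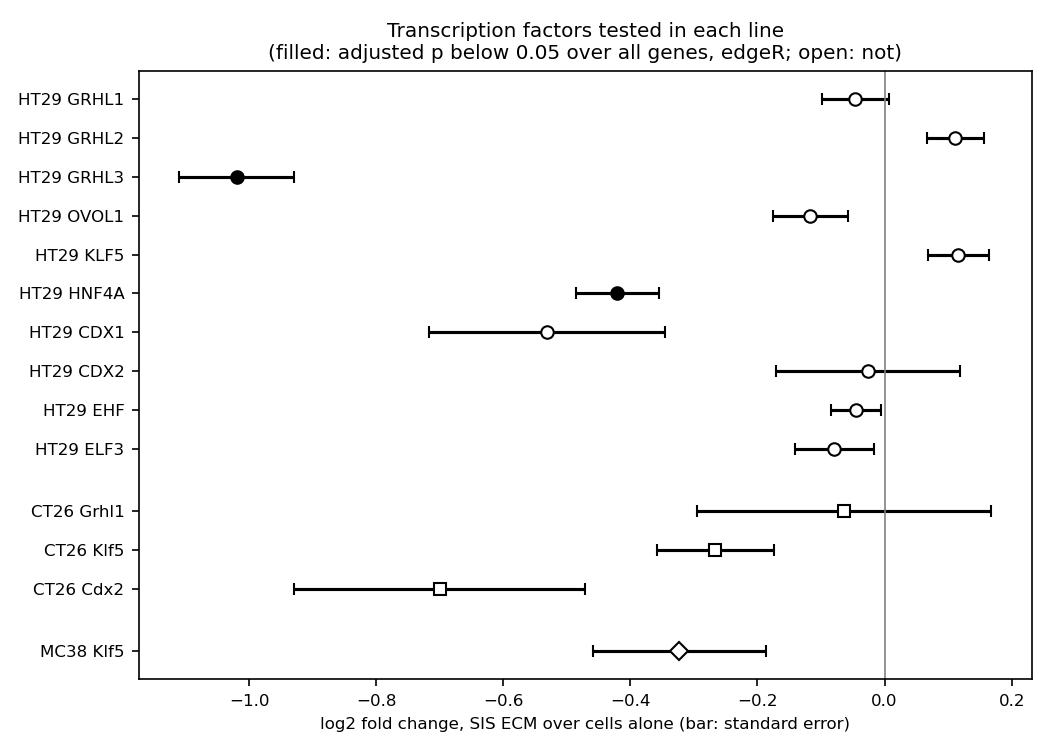
Log2 fold change of SIS ECM over cells alone (horizontal axis) with its standard error for each tested member, HT29 above CT26 and MC38. Filled symbols were called over all genes and open symbols were not; the 2 filled symbols are GRHL3 (-1.02) and HNF4A (-0.42) in HT29.

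Genes that HNF4A or CDX2 are known to regulate in the intestine were looked at next in HT29, as a list of 24 genes. Of the 13 that passed the filter on low counts, 6 fell with SIS ECM, none rose and 7 were not called. Over all genes tested, 13.5% were called and 5.79% were called lower. The median log2 fold change of the 13 was -0.38, against -0.0046 over all genes tested. This list and those below were chosen with earlier results of these data known. Their counts and p-values describe these libraries and are no independent support. MYO1A, the brush-border myosin, averaged 2.73 ± 0.31 CPM with SIS ECM and 4.63 ± 0.18 CPM in cells alone (SD, n = 6 each; log2 fold change -0.77 ± 0.09, edgeR adjusted p = 1.15e-05). The intestinal cadherin CDH17 averaged 8.91 ± 0.88 CPM with SIS ECM and 13.2 ± 0.48 CPM in cells alone (SD, n = 6 each; -0.57 ± 0.06, edgeR adjusted p = 1.26e-05). The brush-border peptidase DPP4 averaged 46.4 ± 1.15 CPM with SIS ECM and 61.5 ± 5.35 CPM in cells alone (SD, n = 6 each; -0.41 ± 0.05, edgeR adjusted p = 3.93e-05). In all 3 genes every SIS ECM library lay below every library of cells alone. They were named for having the smallest adjusted p of the list, so nothing is read from this separation. The lectin LGALS4 (-0.38 ± 0.06, edgeR adjusted p = 0.000149) and the keratin KRT20 (-0.28 ± 0.05, adjusted p = 0.00124) fell too, as did the actin-bundling villin VIL1 (-0.23 ± 0.05, adjusted p = 0.00289), which was named after its values were seen. Of those not called, CDHR5, a protocadherin of the brush border, had the highest mean CPM, at 37.3 ± 4.79 CPM with SIS ECM and 41.5 ± 4.35 CPM in cells alone (SD, n = 6 each; edgeR adjusted p = 0.225).

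Of 20 other gut transcription factors, 16 were tested in HT29, and 2 rose, 2 fell and 12 were not called, beside the 13.5% called over all genes. ASCL2, a factor of crypt stem cells, averaged 10.4 ± 0.58 CPM with SIS ECM and 7.69 ± 0.76 CPM in cells alone (SD, n = 6 each; log2 fold change 0.44 ± 0.07, edgeR adjusted p = 0.000391). SOX9, a factor of crypt and progenitor cells, averaged 115 ± 12.1 CPM with SIS ECM and 88.3 ± 8.37 CPM in cells alone (SD, n = 6 each; 0.37 ± 0.07, edgeR adjusted p = 0.00189). NR5A2, a nuclear receptor of the gut and liver, averaged 3.10 ± 0.31 CPM with SIS ECM and 4.26 ± 0.50 CPM in cells alone (SD, n = 6 each; -0.46 ± 0.10, edgeR adjusted p = 0.00423). HNF4G, the paralogue of HNF4A in the intestine, was also lower with SIS ECM (57.4 ± 3.74 CPM, against 64.8 ± 3.27 CPM in cells alone, SD, n = 6 each; -0.17 ± 0.05, edgeR adjusted p = 0.0238); it was named after its values were seen. ONECUT2, with the highest mean CPM of those not called, averaged 135 CPM in both cultures (edgeR adjusted p = 0.991).

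**Figure D3:**
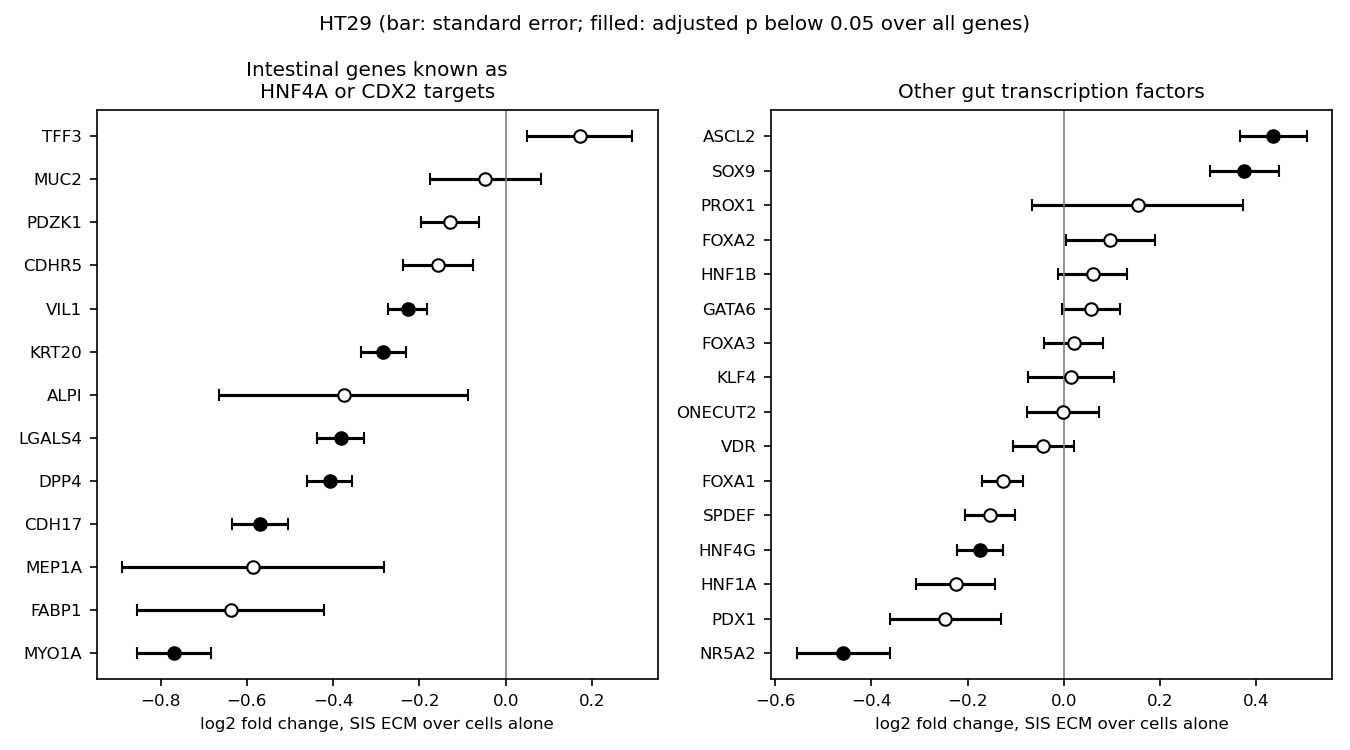
Log2 fold change of SIS ECM over cells alone in HT29 (horizontal axis) with its standard error, for the 13 tested genes known as HNF4A or CDX2 targets (left) and the 16 tested other gut transcription factors (right). Filled symbols were called over all genes: 6 targets, all below 0, and 4 factors, 2 on each side of 0.

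Of a list of junction and epithelial genes, 2 of the 23 tested in HT29 were called, where 13.5% of all genes were called. The median log2 fold change of the list was -0.02. Binding of these genes by grainyhead factors was not measured. The tight-junction protein OCLN fell (-0.15 ± 0.05, edgeR adjusted p = 0.0358), and the membrane protease ST14 rose (0.18 ± 0.06, adjusted p = 0.0449). The keratin KRT8, with the highest mean CPM of the 21 not called, averaged 4076 ± 372 CPM with SIS ECM and 4453 ± 210 CPM in cells alone (SD, n = 6 each; edgeR adjusted p = 0.174). Both junction calls were lost when single libraries were left out, ST14 in 10 of 12 omissions and OCLN in 7. Among 11 tested relatives of the members, read against the same 13.5%, 2 rose: ELF5, an ETS factor of glandular epithelia (0.68 ± 0.11, edgeR adjusted p = 0.000685), and KLF10 (0.19 ± 0.05, adjusted p = 0.0264), a zinc-finger factor induced by TGF-beta, whose call was lost in 2 of 12 omissions. KLF6 had the highest mean CPM of the relatives not called (0.14 ± 0.06, edgeR adjusted p = 0.17). Of 4 tested ZEB, SNAI and TWIST list genes, FOXC1, a forkhead factor, rose (0.40 ± 0.06, edgeR adjusted p = 0.000214), and SNAI3 had the highest mean CPM of those not called (0.23 ± 0.14, adjusted p = 0.3).

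Markers of other cell types were checked in the same HT29 libraries. Fibroblast markers summed to 0.669 to 1.28 CPM with SIS ECM and 0.67 to 1.58 CPM in cells alone, and endothelial markers to 0.295 to 0.535 CPM with SIS ECM and 0.301 to 0.556 CPM in cells alone. COL1A1, a fibrillar collagen and the fibroblast marker tested, averaged 1.00 ± 0.21 CPM with SIS ECM and 0.915 ± 0.24 CPM in cells alone (SD, n = 6 each; log2 fold change 0.13 ± 0.20, edgeR adjusted p = 0.731). Leukocyte markers summed to 1698 to 2066 CPM with SIS ECM and 1847 to 2014 CPM in cells alone, of which the antimicrobial enzyme LYZ, also made by gut epithelium, held nearly all at 1839 ± 130 CPM with SIS ECM and 1936 ± 63.5 CPM in cells alone (SD, n = 6 each; edgeR adjusted p = 0.367). Smooth muscle markers summed to 9.78 to 12.9 CPM with SIS ECM and 13.2 to 15.4 CPM in cells alone, with TAGLN lower (-0.36 ± 0.09, edgeR adjusted p = 0.00957) and ACTA2 higher (0.49 ± 0.15, adjusted p = 0.0324). The ACTA2 call was lost in 7 of 12 single-library omissions and without the low-count filter (edgeR adjusted p = 0.0637). Of the 10 colorectal epithelium markers 5 fell and none rose, where 5.79% of all genes were called lower. The median log2 fold change was -0.22 over the 10, and the list shares genes with the known targets above.

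In the mouse lines most of the factors were at or near 0. Of the 10 members, CT26 had 3 without a single count in 219 (in 1e6) counts over its 12 libraries (Hnf4a, Cdx1 and Ehf), and MC38 had 3 without a count in 218 (in 1e6) counts over 10 libraries (Grhl3, Hnf4a and Cdx2). A count of 0 allows a level of up to 0.0137 CPM over all libraries of either line (3 counts, covering counting error only). Grhl3, Elf3 and Ovol1 had 1 or 2 counts in all of CT26, and Cdx1, Ehf, Elf3, Ovol1 and Grhl2 had 1 to 8 counts in all of MC38. Grhl2 had 7 counts in CT26 with SIS ECM and 5 in CT26 cells alone. The filter therefore left 3 members to test in CT26 and 1 in MC38. Per kilobase of merged exons in GENCODE M21, Klf5 (chr14:99298691-99315036, plus strand, GRCm38) was the most abundant member in both lines, at 8.23 ± 1.06 CPM per kilobase in CT26 with SIS ECM and 9.89 ± 0.96 in CT26 cells alone (SD, n = 6 each). Next in CT26 came Cdx2, at 0.219 ± 0.049 CPM per kilobase with SIS ECM and 0.356 ± 0.088 in cells alone, and Grhl1, at 0.167 ± 0.056 with SIS ECM and 0.174 ± 0.021 in cells alone (SD, n = 6 each). With SIS ECM the last 2 did not differ beyond their spread.

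In CT26 most SIS ECM libraries lay below those of cells alone for Klf5 and Cdx2, and neither gene reached the threshold in the fit on culture alone. Klf5 had a lowest, median and highest level of 36.7, 43.4 and 51.1 CPM with SIS ECM, against 45.5, 51.4 and 57.1 CPM in cells alone, and 5 of 6 SIS ECM libraries lay below all of cells alone. The means were 42.8 ± 5.51 CPM with SIS ECM and 51.4 ± 4.97 CPM in cells alone (SD, n = 6 each), a log2 fold change of -0.27 ± 0.09 (SE). Cdx2 (chr5:147300805-147307270, minus strand, GRCm38) was counted at 6 to 14 reads per library with SIS ECM and 11 to 25 in cells alone. It averaged 0.496 ± 0.11 CPM with SIS ECM and 0.805 ± 0.20 CPM in cells alone (SD, n = 6 each), a log2 fold change of -0.70 ± 0.23 (SE), and the groups did not overlap. Every library of cells alone was above the filter's minimum count of 10, and most SIS ECM libraries were not. Cdx2 therefore passed the filter through cells alone, and the separation of its groups is a description only. Grhl1 averaged 0.927 ± 0.31 CPM with SIS ECM and 0.962 ± 0.12 CPM in cells alone (SD, n = 6 each; -0.06 ± 0.23), and the groups overlapped. Of 12269 genes tested, 9.25% were called, and none of the 3 members was, by edgeR or by DESeq2.

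In CT26 and MC38, libraries with the same number deviated together. That check spans both number ranges, so pairing by number cannot be told apart from a shift between the ranges. The own number correlated best in 1 of 6 CT26 pairs and 2 of 4 MC38 pairs. The block on the number is therefore given as an alternative fit, since pairing was not shown. With the number as a block, Klf5 was called lower in CT26 (log2 fold change -0.27 ± 0.06), in a fit that called 18.6% of all genes. With a term for the number range (libraries 4 to 6 against 1 to 3), Klf5 (-0.27 ± 0.06) and Cdx2 (-0.70 ± 0.24) were called, in a fit that called 28.9% of all genes. The limit given above for Cdx2, that it passed the filter through cells alone, holds here too. Klf5 was also called within each range, at -0.29 in libraries 1 to 3 and -0.25 in libraries 4 to 6. Those fits called 2484 of 12405 and 2333 of 12300 genes. Klf5 was chosen with this contrast known, so these calls are a description and no separate support. Within libraries 1 to 3 it averaged 46.0 ± 4.63 CPM with SIS ECM and 55.8 ± 1.64 CPM in cells alone, and within libraries 4 to 6 it averaged 39.6 ± 4.87 CPM with SIS ECM and 47.1 ± 1.63 CPM in cells alone (SD, n = 3 each). Of 12 single-library omissions 1 brought the call, that of CT26 SIS ECM library 3, at 51.1 CPM (-0.32). In the authors' deposited table, Klf5 in CT26 is listed at -0.25 with an adjusted p below 0.05 and Grhl1 at -0.31 without.

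In MC38, Klf5 had 2.41, 2.43, 2.30, 2.04 and 2.00 CPM with SIS ECM, against 2.83, 3.02, 3.05, 2.83 and 2.31 CPM in cells alone. The library of cells alone numbered 5 lay within the range of SIS ECM, and the groups otherwise stood apart. SIS ECM libraries were numbered 1, 3, 4, 5 and 6 and those of cells alone 1 to 5. The number ranges were thus not balanced between the MC38 cultures, and culture and range are partly mixed. Over the 10 other settings, among them a number range term, the log2 fold change of Klf5 was -0.34 to -0.26, without a call. The means were 2.24 ± 0.20 CPM with SIS ECM and 2.81 ± 0.30 CPM in cells alone (SD, n = 5 each), a log2 fold change of -0.32 ± 0.14 (SE) from 38 to 55 reads per library with SIS ECM and 55 to 68 in cells alone. It was not called, by edgeR or by DESeq2, where 9.17% of 13146 tested genes were called by edgeR. That count of 1206 genes became 626 to 1948 when single libraries were left out, and 6 of the 10 omissions moved it by over 1.5 times. Leaving out the library of cells alone numbered 4 gave 1948. SIS ECM libraries 4 and 6 and cells alone libraries 1, 2 and 3 each gave fewer, down to 626 without cells alone library 2. Grhl1 had 27 counts over the 5 SIS ECM libraries and 38 over the 5 of cells alone and was under the filter. In the authors' deposited table, Klf5 in MC38 is listed at -0.31 and Grhl1 at -0.23, neither with an adjusted p below 0.05.

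**Figure D4:**
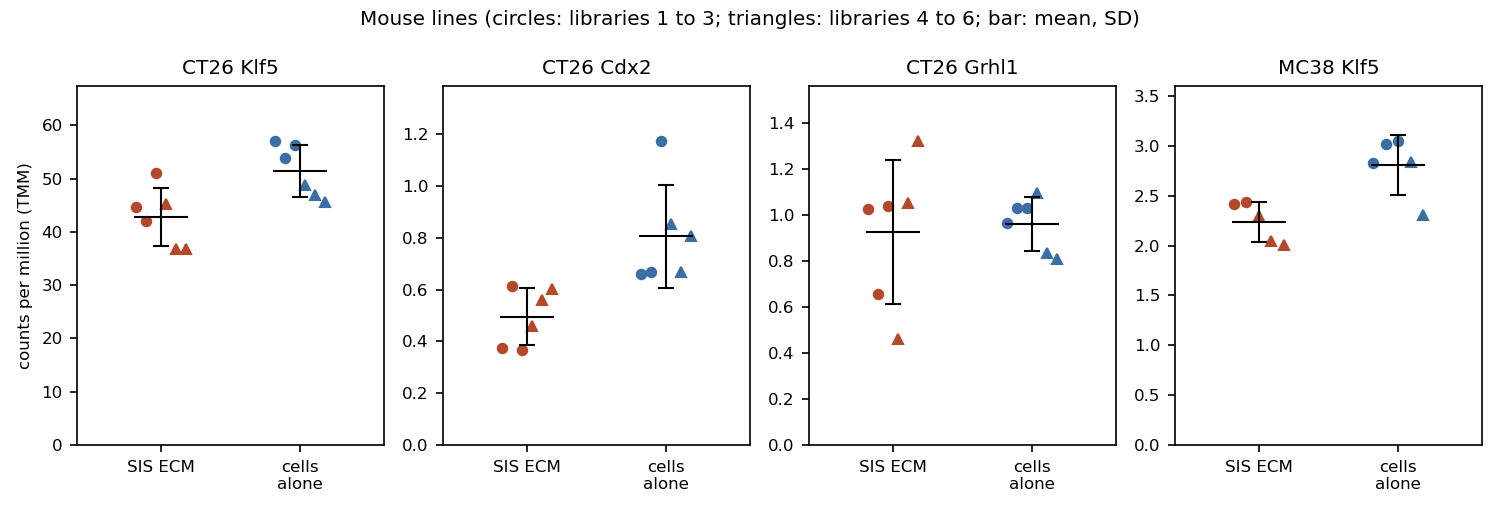
Levels in CPM (vertical axis, linear, from 0) of the members tested in CT26 (Klf5, Cdx2, Grhl1) and MC38 (Klf5), with SIS ECM left and cells alone right in each panel. Circles are libraries 1 to 3 and triangles libraries 4 to 6, bars give mean and SD; CT26 Klf5 averages 42.8 CPM with SIS ECM and 51.4 CPM in cells alone, and its triangles lie low in both cultures.

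Whether the response to SIS ECM differed between the mouse lines was tested in one model over the 22 mouse libraries, in which 8.27% of 14080 genes were called. The log2 difference of MC38 minus CT26 was -0.06 ± 0.15 (SE) for Klf5 and -0.38 ± 0.40 (SE) for Grhl1. Grhl1 was under the filter in MC38 alone, with 27 counts with SIS ECM and 38 in cells alone. It entered the joint fit through its CT26 counts. These differences are built from those by which the members were chosen, so they are given as a description. No member was called by edgeR or DESeq2. Cdx2, at 0 in every MC38 library, could not be compared.

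The number ranges were compared with culture in the model. Members were not chosen by this contrast, but the ranges were chosen with earlier results of these data known. The p-values below describe these libraries and are no independent support. In CT26, Klf5 averaged 43.3 ± 5.25 CPM in libraries 4 to 6 and 50.9 ± 6.19 CPM in libraries 1 to 3 (SD, n = 6 each), and it was lower in libraries 4 to 6 (log2 fold change -0.23 ± 0.06, edgeR adjusted p = 0.00524). In this contrast 52.7% of all CT26 genes were called. Cdx2 (0.02 ± 0.24, edgeR adjusted p = 0.994) and Grhl1 (-0.04 ± 0.23, adjusted p = 0.893) were not called. In MC38, where 40.8% of genes were called, Klf5 averaged 2.30 ± 0.33 CPM in libraries 4 to 6 and 2.75 ± 0.31 CPM in libraries 1 to 3 (SD, n = 5 each; -0.20 ± 0.13, edgeR adjusted p = 0.225). The cultures were not balanced over the MC38 ranges, so these means also differ in culture, which the fold change takes into account. In HT29 edgeR called 0% of 15207 genes and none of the 10 members, with 2473 genes and 3 members (HNF4A, ELF3 and OVOL1) at an unadjusted p below 0.05; DESeq2 called 86 genes and no member. Mitochondrial transcripts made up 7.66 to 8.59% of counts in CT26 libraries 4 to 6 and 3.72 to 5.01% in libraries 1 to 3, and their part in the Klf5 difference was not tested.

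In CT26, of 6 tested genes known as HNF4A or CDX2 targets 2 rose, namely Cdh17 (9.11 ± 2.32 CPM with SIS ECM and 2.51 ± 0.88 CPM in cells alone, SD, n = 6 each; log2 fold change 1.85 ± 0.23, edgeR adjusted p = 0.000153) and the aminopeptidase Anpep (1.13 ± 0.30, adjusted p = 0.0329), a call lost in 8 of 12 single-library omissions. In HT29 the same cadherin was lower with SIS ECM, and no test of the difference between species was made because the tables were normalised separately. Krt20, a keratin of differentiated gut epithelium, was not called at 50.9 ± 2.52 CPM with SIS ECM and 43.6 ± 6.48 CPM in cells alone (SD, n = 6 each; 0.22 ± 0.09, edgeR adjusted p = 0.147). With the number as a block its edgeR adjusted p was 0.0499, and with the number range term 0.0105. The range term fit called 4 of the 6 targets and 28.9% of all genes. Over the 10 other settings 1 to 4 targets were called. Of 3 tested CT26 junction genes the keratin Krt18 rose (1.11 ± 0.20, edgeR adjusted p = 0.00252), while the junction protein Jup was not called (0.13 ± 0.26, adjusted p = 0.82). The fit on culture alone called 9.25% of all CT26 genes.

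None of 6 other gut transcription factors and none of 8 relatives was called in CT26 by edgeR on culture alone, which called 9.25% of all genes. The zinc-finger factor Klf4 averaged 49.0 ± 11.7 CPM with SIS ECM and 61.5 ± 15.2 CPM in cells alone (SD, n = 6 each; edgeR adjusted p = 0.285). Klf3, of the same family, averaged 155 ± 32.1 CPM with SIS ECM and 181 ± 35.6 CPM in cells alone (SD, n = 6 each; edgeR adjusted p = 0.374). With the number as a block 1 gene of each list was called, namely Klf4 (-0.32 ± 0.05, edgeR adjusted p = 0.00204) and Klf3 (-0.23 ± 0.06, adjusted p = 0.0158), both lower. The block fit called 18.6% of all genes. Among ZEB, SNAI and TWIST list genes in CT26, Tcf4, a basic helix-loop-helix factor, rose (0.48 ± 0.13, edgeR adjusted p = 0.0303) and the homeobox factor Prrx1 was not called (-0.13 ± 0.13, adjusted p = 0.607). That was 1 of 10 tested, with 2 called under the block, and the Tcf4 call was lost in 6 of 12 single-library omissions.

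In MC38 none of the 3 junction genes, 2 targets, 6 gut factors and 8 relatives tested was called on culture alone, where 9.17% of all genes were called. The genes with the highest mean CPM in these lists were the receptor Erbb3 (log2 fold change -0.20 ± 0.14, edgeR adjusted p = 0.401), the lipid transfer protein Mttp (-0.17 ± 0.10, adjusted p = 0.319), Sox9 (0.11 ± 0.06, adjusted p = 0.247) and Ubp1 (0.15 ± 0.09, adjusted p = 0.341), a factor related to the grainyhead family. Of the relatives, 1 was called with the number as a block and 4 of 8 with the number range term, among them Ubp1 (0.21 ± 0.06, edgeR adjusted p = 0.0203). Over all genes, the block fit called 1188 of 13179 and the range term fit 3246 of 13146. In the ZEB, SNAI and TWIST list, read against the same shares of all genes, 1 of 10 tested was called on culture alone and 3 with the range term. Snai1, a zinc-finger repressor, fell (-0.40 ± 0.11, edgeR adjusted p = 0.0408), a call lost in 7 of 10 single-library omissions. Tcf4 was not called on culture alone (0.13 ± 0.08, edgeR adjusted p = 0.32). Cdh1, the one of the 2 tested epithelium markers with the higher mean CPM, averaged 0.542 ± 0.39 CPM with SIS ECM and 0.736 ± 0.20 CPM in cells alone (SD, n = 5 each; edgeR adjusted p = 0.551).

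Fibroblast markers summed to 439 to 678 CPM in CT26 with SIS ECM and 502 to 763 CPM in CT26 cells alone, and to 2678 to 4238 CPM in MC38 with SIS ECM and 3616 to 4558 CPM in MC38 cells alone. Their part in the differences above was not tested. In CT26, 1 of the 6 tested was called on culture alone and 4 with the block, where 9.25% and 18.6% of all genes were called. The proteoglycan Dcn rose (3.78 ± 0.71 CPM with SIS ECM and 2.40 ± 0.35 CPM in cells alone, SD, n = 6 each; 0.65 ± 0.16, edgeR adjusted p = 0.0191). The collagen Col1a2 was not called on culture alone (-0.29 ± 0.13, edgeR adjusted p = 0.18) and was called with the block (-0.29 ± 0.07, adjusted p = 0.0138). In MC38, 1 of the 5 tested was called on culture alone and 2 with the block. Over all genes, 9.17% were called on culture alone and 1188 of 13179 with the block. The collagen Col1a1 fell, at 0.845 ± 0.27 CPM with SIS ECM and 7.98 ± 0.85 CPM in cells alone (SD, n = 5 each; -3.23 ± 0.18, edgeR adjusted p = 1.74e-06). Its groups did not overlap. Col3a1 (-0.63 ± 0.20, edgeR adjusted p = 0.0652) and Pecam1, the one endothelial marker tested (-0.67 ± 0.22, adjusted p = 0.0766), were not called on culture alone. With the block both were called, at -0.52 ± 0.09 for Col3a1 (edgeR adjusted p = 0.00548) and -0.65 ± 0.17 for Pecam1 (adjusted p = 0.0374). Leaving out single libraries brought a call for Col3a1 in 2 of 10 omissions and for Pecam1 in 1.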

How the data were processed

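PolyA RNA was sequenced from 34 spheroid libraries, and the submitters' processing notes list STAR 2.7.0f, RSEM 1.3.1, cutadapt 1.18 and limma, with builds mm10 and hg38, without saying which step each served. The authors deposited estimated counts per gene, not normalised, for each species. These were rounded to whole numbers before testing; 3811 to 4113 values per human library and 2244 to 2621 per mouse library were not whole. For each line the deposited comparison tables, as their headers show, hold a log2 fold change and p-values, raw and adjusted, and the members' fold changes and calls are quoted from the authors' values. The 34 per-sample columns of those tables were not used.

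Members were matched by symbol. Genes were filtered with filterByExpr (minimum count 10), scaled by TMM within a line and tested with edgeR 4.0.16 (quasi-likelihood, Benjamini-Hochberg adjustment over all tested genes, threshold 0.05, R 4.3.3), on data simulated from these libraries first. The 7 comparisons were SIS ECM against cells alone and libraries 4 to 6 against 1 to 3 in each line, and MC38 against CT26 in their response. Standard errors are the log2 fold change divided by the square root of F. Library totals are in the report, and limits for a count of 0 (3 counts) cover counting error only. No pair of libraries in a group was identical, and all 80 such pairs differed beyond sampling noise.

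The members, gene lists and number ranges were chosen with earlier results of these data known. From each list the text names, per line, up to 3 called genes with the smallest adjusted p and the gene not called that has the highest mean CPM. Pairing by number was checked by the correlation of deviations from group means, which was 0.222 to 0.484 over 6 pairs in CT26 and 0.188 to 0.321 over 4 pairs in MC38, every pair above 0.1, and -0.0956 to 0.0646 in HT29. The check does not separate pairing by number from a shift between number ranges. Alternatives were DESeq2 1.42.0, limma-voom (limma 3.58.1), other scalings and filters, a replicate block, a number range term, each range alone and each library left out. The block used only numbers found in both cultures, so in MC38 cells alone library 2 and SIS ECM library 6 were left out of it. Mouse promoters are RefSeq sequences of build GRCm38.p6, and gene coordinates are from GENCODE M21.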

Additional observations from a re-analysis of the deposited data

Results flagged for a closer look

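Among 28 groups of libraries (each tested member, line and culture), 2 held a library far from the others, where chance flags about 1 in 20. In HT29 cells alone, library 5 had the lowest OVOL1 level, 35.8 CPM, while the next was 42.2 CPM and the highest 45.3 CPM. In CT26 cells alone, library 3 had the highest Cdx2 level, 1.17 CPM, while the next was 0.852 CPM and the lowest 0.661 CPM.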

How the results depend on the processing

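GRHL3 and HNF4A in HT29 kept their direction and their call under all 10 other settings and all 12 single-library omissions, with log2 fold changes of -1.13 to -0.90 and -0.46 to -0.39 over the settings. The number of HT29 members called was 2, and 2 to 3 over the omissions. In CT26 it was 0, with 1 under the replicate block, 2 with a number range term, 1 in libraries 1 to 3 alone, 1 in libraries 4 to 6 alone, and 0 to 1 over the omissions. In MC38 it was 0 throughout, and the block changed no other member's call. In HT29 the block called 2. Libraries correlated best with their own number in 0 of 6 pairs in HT29, 1 of 6 in CT26 and 2 of 4 in MC38. Pairing by number was thus not shown in any line. Klf5 between number ranges in CT26 stayed called under 3 other settings (-0.25 to -0.24) and 12 omissions. The cause of these shifts was not tested. Over all genes, HT29 had 2058 calls, against 719 in libraries 1 to 3 and 417 in libraries 4 to 6, which hold fewer samples. CT26 had 1135, against 2281 with the block, 3545 with the range term, 2484 in libraries 1 to 3 and 2333 in libraries 4 to 6. MC38 had 1206, 626 to 1948 over the omissions, against 3246 with the range term, 5287 in libraries 1 to 3 and 2318 in libraries 4 to 6. The response difference had 1165, against 3740 with the range term, and HT29 number ranges 0, against 86 with DESeq2 and 431 without the count filter. Of the HT29 lists, junction genes had 2 calls and 0 to 6 over the settings, and known targets 6 and 5 to 6. Levels near 1 CPM (CDX1, CDX2, CT26 Cdx2 and Grhl1) rest on few reads, so small differences were not detectable there.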
